A study of Rattus norvegicus with 46 samples.

Results

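The 6 genes Pmch, Oxt, Avp, Gal, Cartpt and Crh, which encode the precursors of peptides made by hypothalamic neurons, were followed through the frontal lobe of rats given chlorpyrifos. They were chosen by symbol: a probe set belonged to the group when the array's annotation gave it one of these symbols and no other. Each gene had 1 such probe set, so the group holds 6 genes of the 10411 that the array measures under a single symbol. The names themselves were picked because levels in the arrays from 50 mg/kg animals were known, so every value of the 50 mg/kg comparison is given as a description and none of it is a test.

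All animals were male F344 rats (also called Fisher 344) aged 11 to 12 weeks, killed 96 h after 1 dose of vehicle or of chlorpyrifos, an organophosphate insecticide whose oxidised metabolite inhibits acetylcholinesterase. The route and the composition of the vehicle are not given in the sources used here. Total RNA, of which 15 ug was labelled with biotin, came from a piece of frontal lobe of about 30 mg, and each piece was read on 1 Affymetrix rat array. Experiment A used 3 rats given vehicle, 3 given 1 mg/kg, 5 given 10 mg/kg and 3 given 50 mg/kg. Experiment B used 4 rats given vehicle, 3 given 0.5 mg/kg, 1 given 5 mg/kg and 3 given 30 mg/kg. Experiment C used 3 rats given vehicle, 4 given 1 mg/kg, 3 given 5 mg/kg and 4 given 10 mg/kg. These are 39 of 46 columns: the other 7 held their values in another order of probe sets, with a median correlation to the other columns of -1.19e-05 at most against 0.942 at least in those used. Experiment C also had 2 arrays from 30 mg/kg, and both were among the columns left out. Array medians of intensity lay between 112.2 and 285.6 before scaling. The number of arrays limits the precision. In experiment C, vehicle animal 1 and 10 mg/kg animals 2 and 3 bear a label that calls them a first repeat. The vehicle arrays of experiment B carry 1 label line that names 1 mg/kg against their titles, which were followed.

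Neuropeptides are cut from longer precursors in secretory granules, by prohormone convertases and trimming and amidating enzymes, and are released to act on G protein-coupled receptors. Oxt (oxytocin) and Avp (vasopressin) are made in quantity by the magnocellular neurons of the supraoptic and paraventricular nuclei, whose axons end in the posterior pituitary. Pmch (melanin-concentrating hormone) is made by neurons of the lateral hypothalamus and zona incerta. Gal (galanin), Cartpt (the CART peptides) and Crh (corticotropin-releasing hormone) are made in several hypothalamic nuclei and in other forebrain cells as well, Cartpt in the nucleus accumbens and Crh in cortical interneurons and the central amygdala among them. Magnocellular and Pmch neurons lie outside the frontal cortex.

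Oxt and Avp are neighbours on rat chromosome 3, on opposite strands, with no listed gene between them in RefSeq. Their promoters are shown because the data below set their transcripts side by side. Each is the 250 bases before the start of the gene, read 5′ to 3′ along the gene from RefSeq's GRCr8 assembly. The Oxt stretch is chr3:138235504-138235753 on the plus strand, and the Avp stretch is chr3:138248523-138248772 on the minus strand. Capitals mark every match to TGACG, to TATAA or to AGGTCA on either strand.
Oxt: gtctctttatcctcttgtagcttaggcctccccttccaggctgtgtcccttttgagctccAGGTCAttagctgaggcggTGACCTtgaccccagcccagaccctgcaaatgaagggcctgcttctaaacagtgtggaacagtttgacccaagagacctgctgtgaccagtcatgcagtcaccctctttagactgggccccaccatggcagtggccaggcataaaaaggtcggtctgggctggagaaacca
Avp: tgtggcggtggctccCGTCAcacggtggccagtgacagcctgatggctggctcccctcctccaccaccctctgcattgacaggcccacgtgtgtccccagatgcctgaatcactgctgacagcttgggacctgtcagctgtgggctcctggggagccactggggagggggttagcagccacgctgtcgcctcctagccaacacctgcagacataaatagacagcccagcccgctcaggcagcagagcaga
The Oxt stretch held AGGTCA 2 times, starting 190 bases upstream and, on the other strand, 171 bases upstream, and it held neither TGACG nor TATAA. The motif AGGTCA, a binding element of many nuclear receptors, was in 14.1% of all 33465 promoter stretches of this length. The Avp stretch held TGACG 1 time, 235 bases upstream on the other strand, and no AGGTCA or TATAA. The motif TGACG, the core of the cyclic AMP response element, was in 18.2% of the promoter stretches. The same table held Gal with TGACG 1 time and TATAA 1 time, and Cartpt with 2 overlapping matches to TGACG, 1 on each strand, and TATAA 1 time, against TATAA in 24% of all stretches. CANNTG stood 1 time in Oxt, 4 times in Avp, 1 time in Cartpt and in no place in Gal (65.5% of all stretches), and CCAAT in none of the 4 (34% of all). In all, 4 of the 6 genes matched the table, and both strands were searched for each motif.

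Oxt had the widest range of the 6. Over the 39 arrays its log2 normalised intensity ran from 4.81 through a median of 6.56 to 12.21, a 168-fold range (deposited intensities 30.0 to 4602.4). In experiment A it was 8.72, 5.62 and 6.26 in the vehicle arrays, 7.26, 12.05 and 6.70 after 1 mg/kg, 5.78, 5.29, 6.34, 5.83 and 6.34 at 10 mg/kg, and 7.97, 11.64 and 12.21 at 50 mg/kg. Animals 3 and 4 at 50 mg/kg and animal 2 at 1 mg/kg stood far above the rest, and 50 mg/kg animal 2 lay below vehicle animal 2, so the 50 mg/kg and vehicle arrays of this experiment overlapped. In experiment B it was 6.14, 6.81, 5.51 and 4.81 in the vehicle arrays, 5.87, 6.67 and 6.83 at 0.5 mg/kg, 7.12 at 5 mg/kg, and 7.09, 6.56 and 6.28 at 30 mg/kg. No array of experiment B was high. In experiment C it was 5.91, 6.25 and 11.76 in the vehicle arrays, 6.66, 5.74, 7.48 and 8.83 after 1 mg/kg, 6.93, 7.09 and 6.25 at 5 mg/kg, and 6.41, 7.71, 5.60 and 5.76 at 10 mg/kg. Here the high array was a vehicle animal, number 3, and 1 mg/kg animal 4 was next.

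The 39 arrays thus fell apart into 4 with Oxt at 11.64 or more and 35 with Oxt at 8.83 or less, a gap of 2.81 with no array in it. The 4 are 2 arrays from 50 mg/kg, 1 from 1 mg/kg and 1 from vehicle. Oxt passed the filter on dim probe sets, a mean of at least 6.90, through those arrays: its mean was 7.08 over all arrays and 6.53 without them. Crh passed narrowly, with a mean of 6.93, and all 6 genes passed the filter.

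**Figure D1:**
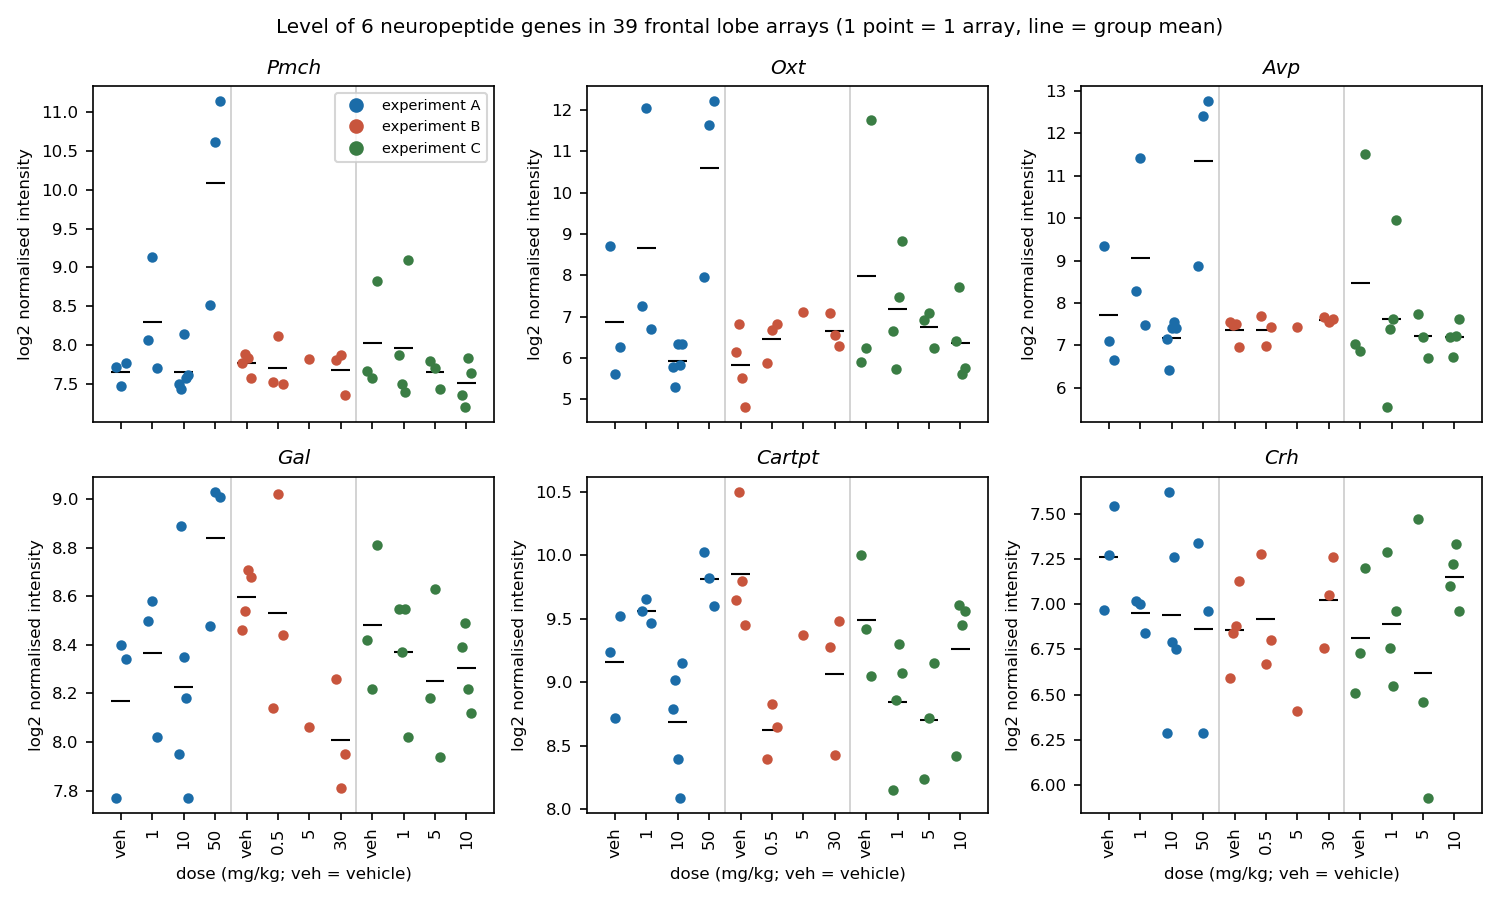
Log2 normalised intensity of each of the 6 genes (vertical axes, a scale of its own in each panel) in every array, by experiment and dose in mg/kg; 1 point is 1 array and a line is a group mean. Oxt, Avp and Pmch have a few arrays far above the others, up to 12.21, 12.76 and 11.14, while Gal, Cartpt and Crh spread more evenly.

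Avp was high in the same arrays. Its level ran from 5.54 through a median of 7.47 to 12.76, a 149-fold range. In experiment A it was 9.34, 7.11 and 6.66 in the vehicle arrays, 8.29, 11.41 and 7.48 after 1 mg/kg, 7.14, 6.41, 7.41, 7.54 and 7.41 at 10 mg/kg, and 8.87, 12.41 and 12.76 at 50 mg/kg. The same 3 arrays were highest as for Oxt, with 1 mg/kg animal 2 now below both 50 mg/kg arrays instead of between them, and vehicle animal 2 again stood above 50 mg/kg animal 2. In experiment B, all 11 arrays lay close together: 7.54, 7.47, 7.50 and 6.97 in vehicle, 7.68, 6.98 and 7.42 at 0.5 mg/kg, 7.44 at 5 mg/kg and 7.66, 7.54 and 7.62 at 30 mg/kg. In experiment C it was 7.02, 6.86 and 11.51 in the vehicle arrays, 5.54, 7.39, 7.61 and 9.96 after 1 mg/kg, 7.73, 7.20 and 6.71 at 5 mg/kg, and 7.20, 6.73, 7.22 and 7.63 at 10 mg/kg. Vehicle animal 3 and 1 mg/kg animal 4 were again the high ones, and 1 mg/kg animal 1 held the lowest Avp value of the series.

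Pmch was high in the same places but by different amounts. Its level ran from 7.20 through a median of 7.72 to 11.14, a 15.3-fold range. In experiment A it was 7.72, 7.47 and 7.77 in the vehicle arrays, 8.07, 9.13 and 7.70 after 1 mg/kg, 7.50, 7.43, 8.14, 7.57 and 7.61 at 10 mg/kg, and 8.52, 10.61 and 11.14 at 50 mg/kg. All 3 arrays at 50 mg/kg lay above all 3 vehicle arrays of the experiment, and vehicle animal 2, high in Oxt and Avp, was at the median for Pmch. In experiment B it was 7.77, 7.89, 7.83 and 7.57 in the vehicle arrays, 7.52, 8.11 and 7.50 at 0.5 mg/kg, 7.82 at 5 mg/kg, and 7.81, 7.87 and 7.35 at 30 mg/kg. In experiment C it was 7.67, 7.58 and 8.82 in the vehicle arrays, 7.87, 7.50, 7.40 and 9.10 after 1 mg/kg, 7.79, 7.71 and 7.44 at 5 mg/kg, and 7.36, 7.20, 7.83 and 7.64 at 10 mg/kg. The 4 Oxt-high arrays were thus unequal for Pmch: the 50 mg/kg arrays stood 2.89 and 3.42 above the Pmch median, against 1.41 in 1 mg/kg animal 2 and 1.09 in vehicle animal 3. For Oxt the same 4 arrays stood 5.08, 5.65, 5.49 and 5.21 above its median, in that order. For Avp they stood 4.94, 5.29, 3.94 and 4.04 above its median. The 1 mg/kg animal 4 of experiment C, with Oxt 2.27 above its median, stood 1.37 above for Pmch.

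The 3 genes followed each other across arrays, centred on the mean of their experiment. Pearson's r over 39 arrays was 0.92 for Oxt with Avp, 0.87 for Pmch with Avp and 0.82 for Pmch with Oxt. Because 4 arrays stand apart, r was also taken in the other 35: 0.73, 0.69 and 0.63, with Spearman's rho of 0.67, 0.53 and 0.51. The experiment means used for centring still included the 4 arrays, here and for every r below that leaves them out. Such values are thus not free of the 4 arrays. By experiment, r of Oxt with Avp was 0.98 over 14 arrays in A, 0.32 over 11 in B and 0.83 over 14 in C. For Pmch with Avp it was 0.93, -0.30 and 0.80, so that the relation lay in the 2 experiments that held high arrays. These values are descriptions of genes read on the same arrays and chosen for moving together, and carry no p.

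**Figure D2:**
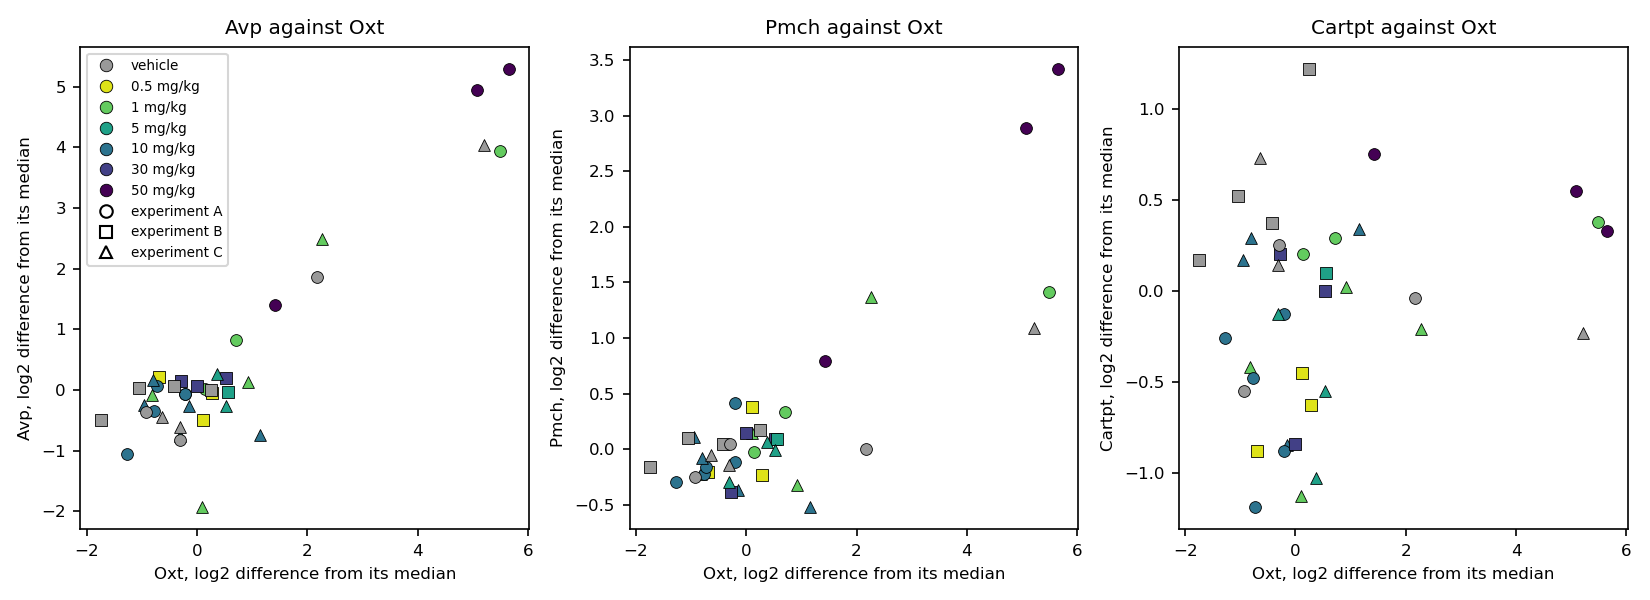
Avp, Pmch and Cartpt (vertical axes) against Oxt (horizontal axes), each as the log2 difference from its own median over 39 arrays; 1 point is 1 array, colour gives the dose and shape the experiment. In the 4 high arrays Oxt lies between 5.08 and 5.65, Avp between 3.94 and 5.29 and Cartpt between -0.23 and 0.55. The 2 arrays from 50 mg/kg lead for Avp with 4.94 and 5.29 and for Pmch with 2.89 and 3.42.

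Gal, Cartpt and Crh did not share this split. Gal ran from 7.77 through 8.39 to 9.03, a 2.39-fold range, and was 9.03 and 9.01 in 50 mg/kg animals 3 and 4 but 8.58 in 1 mg/kg animal 2 of experiment A and 8.81 in vehicle animal 3 of experiment C. An array with low Oxt, 0.5 mg/kg animal 3 of experiment B, held Gal at 9.02. Its r with Oxt was 0.38 over all arrays and -0.08 in the 35. Cartpt ran from 8.09 through 9.28 to 10.50, a 5.32-fold range. Its highest value was in vehicle animal 2 of experiment B and its lowest in 10 mg/kg animal 4 of experiment A, with r to Oxt of 0.25 and 0.16. Crh ran from 5.93 through 6.96 to 7.62, a 3.23-fold range, and its r with Oxt was -0.13 and -0.12.

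After experiment and dose were fitted, the SD left between arrays was 1.58 for Oxt, the third largest of 11106 probe sets, and 1.32 for Avp, the eighth largest. It was 0.56 for Pmch (rank 342), 0.48 for Cartpt (rank 542), 0.39 for Crh (rank 984) and 0.30 for Gal (rank 2085), against a median of 0.21 over all probe sets. The members were chosen for high values in some arrays, so these ranks describe them and test nothing.

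Ordered by group mean, Pmch was highest at 50 mg/kg in A (10.09 ± 1.39, SD, n = 3), then at 1 mg/kg in A (8.30 ± 0.74, n = 3), in the vehicle arrays of C (8.02 ± 0.69, n = 3) and at 1 mg/kg in C (7.97 ± 0.78, n = 4), with the other 8 groups between 7.51 and 7.82. The first step was larger than either SD, and no later step was. Avp kept the same first 3 groups, 11.35 ± 2.15, 9.06 ± 2.08 and 8.46 ± 2.64, and its first step was a little larger than either SD. Oxt kept them too, 10.61 ± 2.30, 8.67 ± 2.94 and 7.97 ± 3.29, but there no step was larger than the SDs. In each of these groups the SD came from 1 or 2 high arrays beside low ones.

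In the fit across all probe sets, with experiment as a term, 1 of the 6 genes, Pmch, passed at 50 mg/kg, where 2 of 11106 probe sets passed in all (0.018%). That contrast chose the members, so nothing is read from the count. The described differences from vehicle, log2 ± SE, were 2.23 ± 0.38 for Pmch (4.71-fold), 3.33 ± 1.08 for Oxt, 3.20 ± 0.90 for Avp, 0.55 ± 0.21 for Gal, 0.55 ± 0.33 for Cartpt and -0.21 ± 0.28 for Crh. The median over the 6 was 1.39, against 0.006 over all probe sets. Experiment A alone held this dose, and within it the differences were 2.43 ± 0.44 for Pmch, 3.74 ± 1.19 for Oxt and 3.65 ± 1.01 for Avp. Without the 4 Oxt-high arrays a single 50 mg/kg array was left, assumed to vary like the other groups. There Pmch was 0.85 ± 0.36 and Avp 1.38 ± 0.83 above vehicle, Pmch no longer passed, and Oxt fell under the filter. Without 50 mg/kg animal 3, without 50 mg/kg animal 4, and without vehicle animal 2 or 3 of experiment A, Pmch did not pass either, and over all 39 arrays left out in turn its difference ran from 1.71 to 3.02. In bulk tissue, more cells of a type and more RNA per cell cannot be told apart.

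None of the 6 genes passed the limma test, with Benjamini-Hochberg adjustment over all probe sets, at 0.5, 1, 5, 10 or 30 mg/kg. Since Oxt entered the test only through its high arrays, its values at these doses are a description. At each of these doses 0 of 11106 probe sets passed (0%), while 847, 281, 278, 297 and 1029 had an unadjusted p under 0.05. Of the 6 genes, 1, 0, 1, 0 and 2 had one. Doses of the same experiment share its vehicle arrays, and all doses share 1 estimate of the spread, so their values are not independent of each other. At 5 and at 10 mg/kg all 6 fitted differences were below 0, with medians of -0.33 and -0.30, against medians of 0 and 0.001 and 50.1% and 50.3% higher over all probe sets. Some of these signs rested on single arrays. At 5 mg/kg Oxt was at -0.07 ± 0.91. Leaving out 1 array at a time took Oxt up to 0.76, Avp to 0.16 and Pmch to 0.09. Cartpt, Crh and Gal stayed below 0. In the single 5 mg/kg array of experiment B, Oxt was 1.30, Avp 0.07 and Pmch 0.05 above vehicle. At 10 mg/kg Crh was at -0.01 and reached 0.09 with 1 array left out. At 10 mg/kg Oxt was at -1.12 ± 0.76 and Avp at -0.83 ± 0.63 (95% interval -2.12 to 0.45), and the 5 arrays of experiment A and 4 of experiment C held no high value. Both values rested on the high vehicle animal 3 of experiment C: without it Oxt was at -0.32 and Avp at -0.19. At 1 mg/kg Oxt was 1.80 ± 1.19 above vehicle in A and -0.80 ± 1.11 from it in C, Avp 1.36 ± 1.01 and -0.84 ± 0.94, and Pmch 0.64 ± 0.44 and -0.06 ± 0.41. Each experiment held 1 Oxt-high array here, on the dosed side in A and on the vehicle side in C. Without 1 mg/kg animal 2, the differences in A were 0.12 for Oxt, 0.18 for Avp and 0.23 for Pmch. Without vehicle animal 3, those in C turned to 1.10, 0.69 and 0.34, so the opposite signs came with those arrays. The difference between the experiments with all arrays was 2.60 ± 1.63 for Oxt and 2.20 ± 1.38 for Avp, the latter with an adjusted p of 0.781 in limma. For that contrast, as for the same one at 10 mg/kg, 0 of 11106 probe sets passed (0%).

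**Figure D3:**
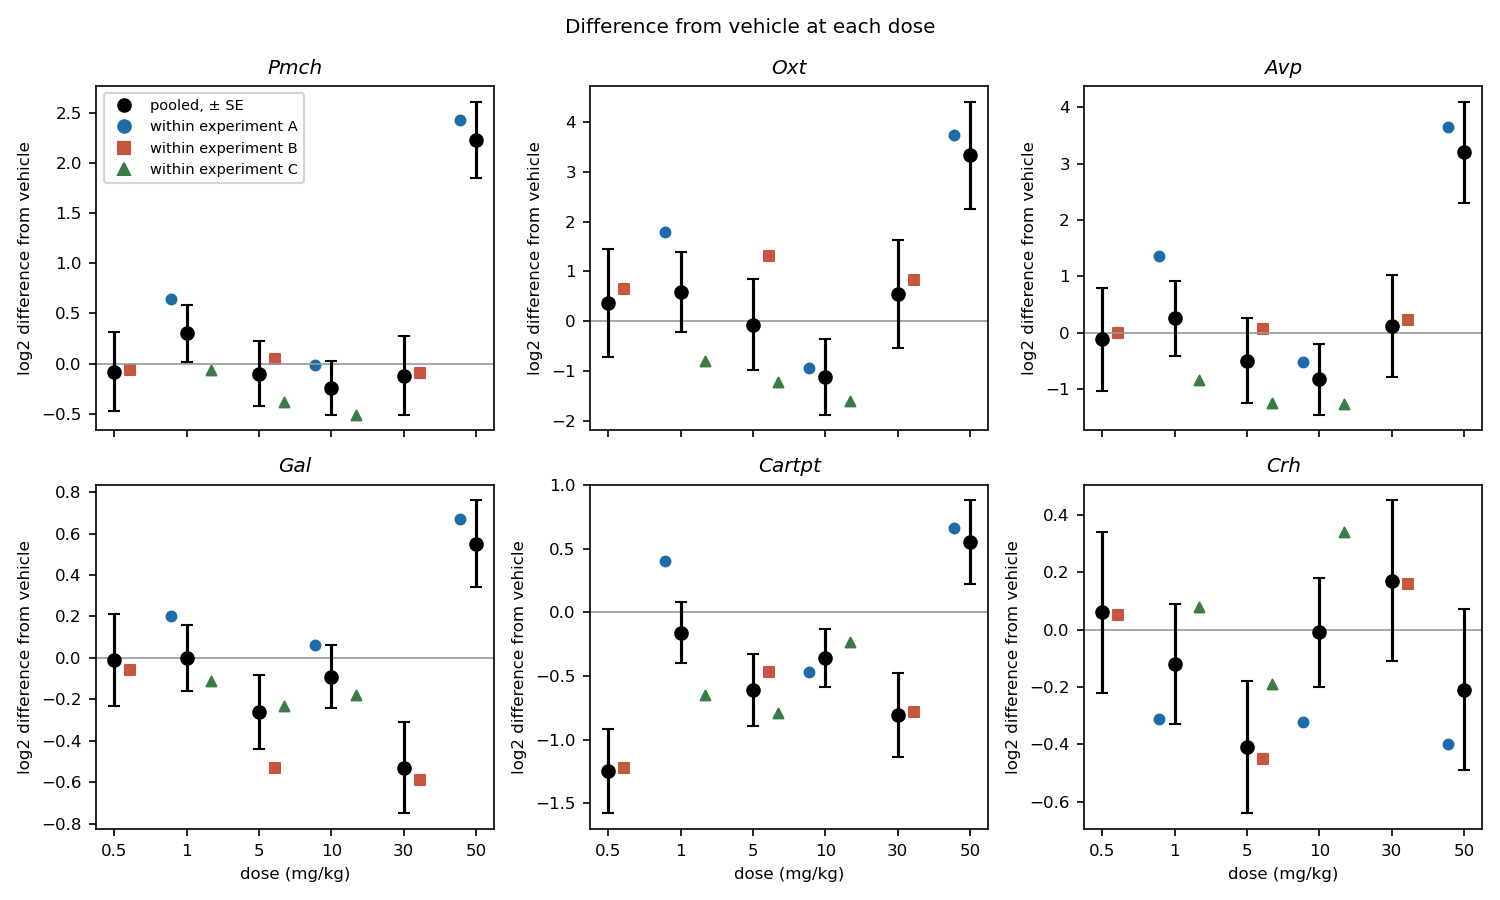
Log2 difference from vehicle (vertical axes, a scale of its own in each panel) at each dose (horizontal axes, evenly spaced, in mg/kg); black points are the pooled fit with bars of ± 1 SE, coloured points the values within each experiment. Pmch at 50 mg/kg stands at 2.23 with a narrow bar, Oxt and Avp at 3.33 and 3.20 with wide ones, and Cartpt is at -1.25 at 0.5 mg/kg.

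Cartpt was the gene with the clearest differences away from 50 mg/kg. In experiment B it was 9.65, 10.50, 9.80 and 9.45 in the vehicle arrays and 8.40, 8.83 and 8.65 at 0.5 mg/kg, so that all 3 dosed arrays lay below all 4 vehicle arrays. The fitted difference was -1.25 ± 0.33 (0.420 of vehicle, 95% interval -1.93 to -0.58), with an unadjusted p of 0.000628 and an adjusted p of 0.376 in limma, short of the threshold. At 30 mg/kg it was 9.28, 8.43 and 9.48, which overlapped the vehicle arrays in 1 case, at a difference of -0.81 ± 0.33 (adjusted p = 0.443). At 5 mg/kg it was 9.37 in experiment B and 8.24, 8.72 and 9.15 in experiment C, whose vehicle arrays were 10.00, 9.42 and 9.05, a difference of -0.61 ± 0.28 (adjusted p of 1 after rounding). With no scaling of the arrays, 5115 of 11106 probe sets (46.1%) passed at 5 mg/kg, 1.19% of all lay above vehicle and the median of all was -0.385. Cartpt, Crh and Gal were among those that passed, and nothing is read from that count. The deposited values of the 5 mg/kg array of experiment B were the dimmest of the 39, with the lowest array median, 112.2. In experiment C the 1 mg/kg arrays were 8.15, 8.86, 9.30 and 9.07, at -0.65 ± 0.31 (adjusted p = 0.725), and the 10 mg/kg arrays 8.42, 9.61, 9.45 and 9.56, at -0.23 ± 0.31. In experiment A the vehicle arrays were 9.24, 8.72 and 9.52, those at 1 mg/kg 9.56, 9.66 and 9.47, those at 10 mg/kg 8.79, 9.02, 8.40, 8.09 and 9.15, and those at 50 mg/kg 10.03, 9.82 and 9.60. The 50 mg/kg arrays lay above all vehicle arrays there, and the 10 mg/kg arrays in the lower part of the vehicle range or under it. At 1 mg/kg the Cartpt differences of A and C lay 1.05 ± 0.45 apart, with an unadjusted p of 0.0277 and an adjusted p of 0.648 in limma.

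Striatal markers lay lower along with Cartpt at some doses and not at others. At 0.5 mg/kg 14 of the 15 measured striatal genes were below vehicle, with a median of -0.59, and at 30 mg/kg all 15 were, with a median of -0.85. Over all genes the median was 0.01 at both doses, with 51.5% and 53.3% of genes above vehicle. At 10 mg/kg all 15 were again below vehicle, with a median of -0.34, but at 5 mg/kg, where Cartpt was at -0.61, 12 of the 15 were above vehicle, with a median of 0.05. None passed the test at these doses. Without vehicle animal 3 of experiment B, whose pituitary transcripts are described below, the medians at 0.5 and 30 mg/kg were -0.94 and -1.21. Of the first 4 of that list, Penk (the enkephalin precursor) was at -0.79 and -0.85 and Drd1 (the D1 dopamine receptor) at -0.98 and -1.01 at these 2 doses, Tac1 (the substance P precursor) at -1.38 and -1.15, and Ppp1r1b (DARPP-32) at -0.59 and -0.69. In experiment B the summed intensity of the list lay between 7862 and 32370 in vehicle arrays, between 6959 and 31113 at 0.5 mg/kg and between 9678 and 14703 at 30 mg/kg. Cortical excitatory markers were higher in 14 of 15 at 0.5 mg/kg, with a median of 0.31. Their part in the Cartpt values was not tested.

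Gal at 30 mg/kg was 8.26, 7.81 and 7.95, below all 4 vehicle arrays of experiment B, which were 8.46, 8.54, 8.71 and 8.68. The difference was -0.53 ± 0.22 (95% interval -0.97 to -0.09), with an unadjusted p of 0.0189 and an adjusted p of 0.437 in limma. At the other doses under 50 mg/kg Gal lay between -0.26 and 0 from vehicle. Crh differed by no more than -0.41 ± 0.23, at 5 mg/kg, where 5 mg/kg animal 4 of experiment C held the lowest Crh value, 5.93, beside 7.47 in animal 1.

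Between the vehicle arrays of the 3 experiments, limma's F test called 0 of the 6 genes, and 861 of 11106 probe sets in all (7.75%). The lowest adjusted p was 0.321, for Cartpt, with vehicle means of 9.16 in A, 9.85 in B and 9.49 in C. Oxt means were 6.87, 5.82 and 7.97, with the single high animal in C.

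The receptors of these peptides were mostly dim. Oxtr, Avpr1a, Avpr1b, Galr1, Galr3 and Lnpep, an enzyme that cleaves oxytocin and vasopressin, did not pass the filter. Galr1 and Oxtr reached 5.10 and 4.51 in their highest arrays. Mchr1, the receptor of melanin-concentrating hormone, Galr2, 1 of the 2 probe sets of Avpr2 (the renal vasopressin receptor) and Crhbp, which binds and holds back the Crh peptide, did pass. At 50 mg/kg 2 of these 4 were higher and 2 lower, with none passing the test at any dose: Mchr1 at -0.08 ± 0.25, Galr2 at 0.12 ± 0.27, Avpr2 at -0.02 ± 0.17 and Crhbp at 0.00 ± 0.28. Crhr1 and Crhr2 had no probe set under a single symbol.

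Most of the enzymes and granins of peptide processing varied little with Oxt, with a few exceptions. Of 15 processing and granule genes, 8 were higher and 7 lower at 50 mg/kg, with a median of 0.02, the same as over all genes, and none passed at any dose. Pcsk2, a prohormone convertase, was at -0.56 ± 0.15, Pcsk1n (proSAAS) at 0.03 ± 0.12, Cpe (carboxypeptidase E) at -0.11 ± 0.06 and Pam, the amidating enzyme, at 0.04 ± 0.09. Resp18, a granule protein, was at 0.73 ± 0.28 with an r to Oxt of 0.68 over the 39 arrays, and Scg2 (secretogranin II) at 0.69 ± 0.25 with an r of 0.56. These 2 were named after their values were seen, and the other 13 had r between -0.49 and 0.22. The list's mean in the 4 Oxt-high arrays lay between 0.06 and 0.11, above the median of the other 35, which was -0.01, and 5 of the 35 reached 0.06 or more.

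Of 12 other hypothalamic peptide precursors that passed the filter, 8 were higher and 4 lower at 50 mg/kg, with a median of 0.09, and none passed the test at any dose. Among the higher ones, Penk, Tac1 and Pdyn are also in the striatal list. Npy was at 0.22 ± 0.20, Sst at 0.13 ± 0.15, Prlh at 0.06 ± 0.19 and Adcyap1 at 0.26 ± 0.32. Among the 8 that did not pass, Hcrt, the precursor of the orexins made by neurons that lie among the Pmch neurons, was 8.34, 7.73 and 7.72 in 50 mg/kg animals 4 and 3 and vehicle animal 3 of experiment C, against 7.10 at most in the 35. In the fourth Oxt-high array, 1 mg/kg animal 2, it was 7.05. Trh, the precursor of thyrotropin-releasing hormone, was 8.09 in vehicle animal 3 of experiment C, 7.63 and 7.21 in the 50 mg/kg arrays and 7.51 in 1 mg/kg animal 2, against 7.07 at most in the 35 and a median of 4.38. All 4 Oxt-high arrays were thus the 4 highest for Trh. Hcrt and Trh were picked after their values were seen. Of the 8 precursors under the filter, 3 (Hcrt, Trh and Nmu) had their highest value in an Oxt-high array, and 5 (Ghrh, Gnrh1, Pomc, Npvf and Ucn) had it in another array. Ghrh, the precursor of growth hormone-releasing hormone, reached 6.73 in the 35 against 4.85 in the 4, and Npvf 7.27 against 6.56. Pomc, made in the arcuate nucleus, did not exceed 4.37 in any array. It also belongs to the pituitary list, and it was as low in the array with the most pituitary transcript, described below. Nothing is therefore read from the low level of its probe set.

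The means of the hypothalamic and of the cortical list stood on opposite sides of their experiment's mean in the Oxt-high arrays, while single hypothalamic markers differed. Both lists were chosen with earlier results of these data known, so this is a description. Of 37 hypothalamic transcription factors and neuronal markers on the array 22 passed the filter, and at 50 mg/kg 19 of these were higher and 3 lower, with a median of 0.30, against 54% higher and a median of 0.02 over all genes. None passed the test. The first 4 were Arnt2 at -0.16 ± 0.14, Dlx5 at 0.43 ± 0.30, Meis2 at 0.26 ± 0.34 and Pgr (the progesterone receptor) at -0.74 ± 0.19. Without the 4 arrays, which leaves a single 50 mg/kg array, 17 were higher and 5 lower, with a median of 0.23. The mean of the 22 genes, against their experiment's mean, was 0.23 to 0.38 in the 4 Oxt-high arrays and -0.31 to 0.35 in the others. Only vehicle animal 3 of experiment B, with Oxt at 5.51, came among them. The summed intensity of these genes lay between 19543 and 28625 at 50 mg/kg and between 13399 and 18646 in the vehicle arrays of experiment A, but the 1 mg/kg arrays of that experiment, 1 of them Oxt-high, lay as high, between 19457 and 27133. Of the markers that define hypothalamic regions, Otp, Rax, Six3, Nr5a1 and Pou3f2 were at or near the lowest value of the table, 3.44, in all arrays, none above 4.59, the Oxt-high ones included. Nkx2-1 was brighter, with a median of 6.94, and reached 7.89 in the 4 arrays and 8.06 in the others, and Isl1 reached 7.05 and 7.44. Lhx1 was highest in 50 mg/kg animal 4, at 7.37 against 6.58 at most in the 35, and Hdc, which makes histamine, in 50 mg/kg animal 3, at 7.39 against 6.51. Of the 15 genes of the list under the filter, 2 (Lhx1 and Hdc) had their highest value in an Oxt-high array, 9 in another, and 4 had the same highest value in both after rounding.

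Of 15 cortical excitatory markers, 2 were higher and 13 lower at 50 mg/kg, with a median of -0.44, and none passed the test. Slc17a7 (the cortical vesicular glutamate transporter) was at -0.77 ± 0.25, Tbr1 at -1.15 ± 0.34, Nrgn (neurogranin) at -0.44 ± 0.16 and Camk2a at -0.28 ± 0.28. The list's sum lay between 25894 and 35560 at 50 mg/kg and between 41173 and 47172 in the vehicle arrays of experiment A, and the 1 mg/kg arrays, at 34234 to 41374, overlapped both. Some of these markers, which fit the labelled frontal lobe, were bright in every piece, with Slc17a7 at 11.09 or more in all 39. Others of the list were dim: Rorb had a median of 7.36 and a lowest value of 6.72. Egr3 had a median of 7.48, and Tbr1 fell to 6.91 in its lowest array. In the 4 Oxt-high arrays the list's mean lay between -0.50 and -0.11, but 6 other arrays were at or below the highest of these. Without the 4 arrays, again with a single 50 mg/kg array left, the count was 4 higher and 11 lower. Striatal markers were higher in 14 of 15 at 50 mg/kg, with a median of 0.57, but in the 4 Oxt-high arrays their mean ran from -0.59 to 0.98, on both sides of the median of the others. Of the first 4 at 50 mg/kg, Ppp1r1b was at 0.45 ± 0.63, Penk at 0.89 ± 0.61, Tac1 at 1.44 ± 0.93 and Drd1 at 0.96 ± 0.73. Their part in the peptide values was not tested.

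**Figure D4:**
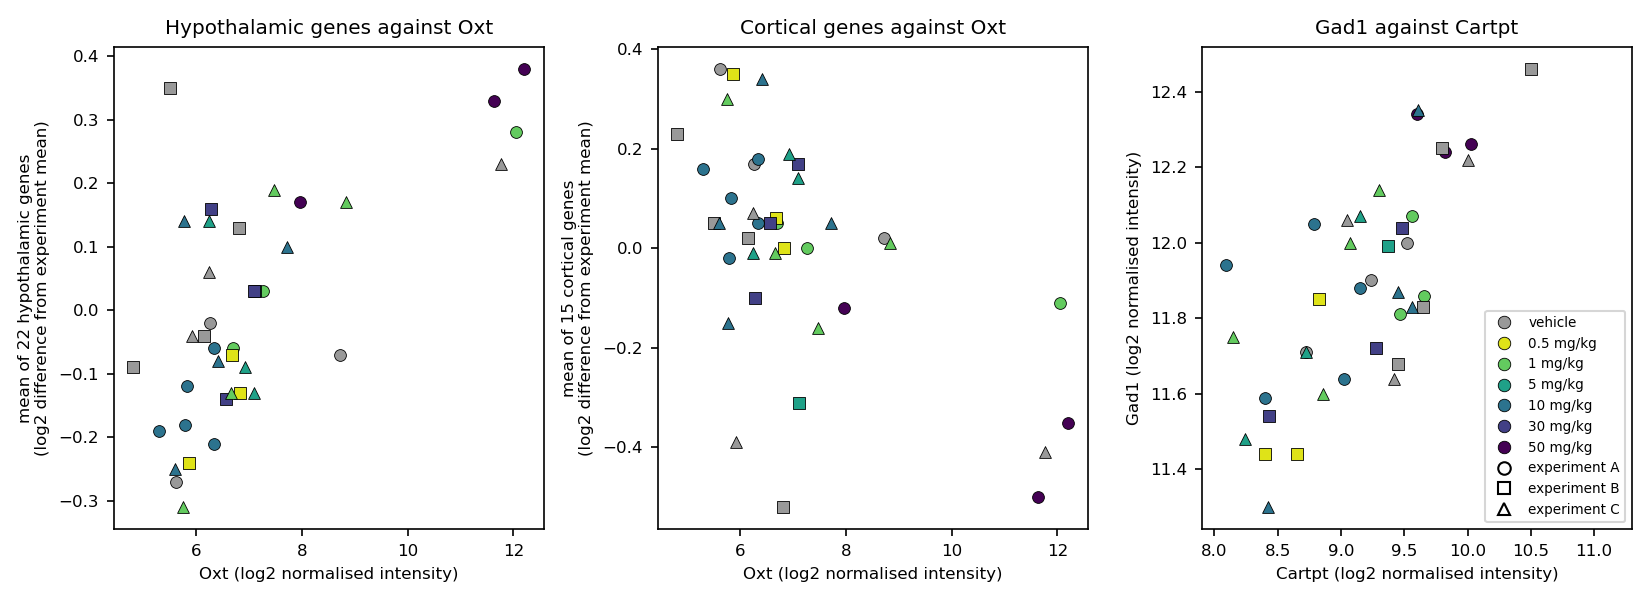
Left and middle, the mean of 22 hypothalamic and of 15 cortical genes (log2 difference from the mean of the experiment) against the Oxt level; right, Gad1 against Cartpt (log2 normalised intensity); 1 point is 1 array, colour gives the dose and shape the experiment. The 4 arrays with Oxt at 11.64 or more hold hypothalamic means of 0.23 to 0.38 and cortical means of -0.50 to -0.11.

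Lists for other tissues and cells were read at 50 mg/kg in the same way. Of 5 olfactory bulb markers all 5 were higher, with a median of 0.50: Th at 0.84 ± 0.24, Calb2 at 1.49 ± 0.55, Ntng1 at 0.15 ± 0.35 and Pcp4 at 0.50 ± 0.34. Their mean was 0.24 to 0.63 in the 4 Oxt-high arrays, and 7 others reached that. Of 6 thalamic and septal markers 4 were higher, with Tcf7l2 at 0.16 ± 0.40, Prkcd at -0.06 ± 0.28, Zic1 at 0.34 ± 0.20 and Lhx2 at -0.23 ± 0.18. Their mean ran from 0 to 0.70 in the 4 Oxt-high arrays, and 11 others were at or above the lowest of these. Its r with Oxt was 0.51 over the 39 arrays and 0.25 in the 35 without high Oxt. Of 10 tanycyte and astrocyte markers 7 were higher, among them Vim at 0.44 ± 0.34, Gfap at 0.30 ± 0.20 and Aqp4 at 0.29 ± 0.20, with Crym at -0.13 ± 0.26. Of 8 choroid plexus and ependymal markers 4 were higher, with Ttr at -0.27 ± 1.41, Folr1 at -0.39 ± 0.35, Aqp1 at 0.27 ± 0.25 and Kcne2 at -0.71 ± 0.34. Of 8 myelin markers 3 were higher, with Mbp at -0.03 ± 0.11, Mog at 0.02 ± 0.30, Mag at 0.10 ± 0.22 and Mobp at -0.03 ± 0.19. Of 7 blood and endothelial markers 2 were higher, with Hbb at -0.41 ± 0.53, Alas2 at -0.32 ± 0.62, Pecam1 at -0.12 ± 0.25 and Cldn5 at -0.04 ± 0.13. None of these genes passed the test.

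Pituitary genes were also read. Whether the dissected pieces differed in the tissue they held was not tested. Of the 5 that passed the filter 3 were higher at 50 mg/kg, with Gh1 (growth hormone) at 0.58 ± 0.95, Cga (the common subunit of the glycoprotein hormones) at 0.40 ± 0.55, Lhb at 0.03 ± 0.22 and Fshb at -0.19 ± 0.22. The array with the most pituitary transcript was vehicle animal 3 of experiment B: Gh1 13.95, Prl (prolactin) 13.47, Cga 11.57 and Tshb 10.27, against medians of 6.89, 4.06, 7.26 and 6.39. Its Oxt was 5.51, below the median, and its Avp 7.50, at the median. The next highest Gh1, 10.00, was in 50 mg/kg animal 2, the one 50 mg/kg array without high Oxt, and the next highest Cga, 8.57, in 50 mg/kg animal 4, an Oxt-high array. The pituitary list's mean in the 4 Oxt-high arrays lay between -0.27 and -0.01. These arrays were singled out after their values were seen.

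Each gene was then set against 7997 others by Pearson's r over the 39 arrays, centred by experiment. For Oxt the 10 highest were Ndn (necdin, an imprinted neuronal protein) at 0.75, 6330403K07Rikl at 0.72, Pgrmc1 at 0.71, Hap1 (huntingtin-associated protein 1) at 0.70, Igsf1, Amigo2, Mesd, Kcnj16 (an inwardly rectifying potassium channel) and Caly (calcyon) at 0.69 and Zcchc12 at 0.68. In the 35 arrays without high Oxt these values were 0.35 to 0.60. Ndn was 11.78 to 12.14 in the 4 Oxt-high arrays and 11.32 to 11.91 in the others. Amigo2 did not overlap: 8.93 to 9.26 in the 4, and 7.28 to 8.76 in the others. Neither did Igsf1, from 9.78 in the 4 against 9.76 at most, and Kcnj16, from 8.28 against 8.27 at most. The rest of the 10 overlapped. These genes were picked for their likeness to Oxt, which marks the 4 arrays, so nothing is read from the separation. The share of all genes that separate these arrays was not counted. The 5 lowest were Mat2b at -0.79, Chn1 at -0.78, Pip4k2c at -0.73, Tut7 at -0.72 and Mlip at -0.71, and Mat2b kept -0.63 in the 35 arrays.

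For Avp the highest were Apeg3, Wdr6 and Ndn at 0.71, Hap1 and Caly at 0.70, Igsf1 and 6330403K07Rikl at 0.69, and Fbxo3, Ass1 (argininosuccinate synthase) and Nap1l5 at 0.68. For Pmch they were Apeg3 at 0.71, Nap1l5 and Plpbp at 0.70, Slc7a3 and Plpp4 at 0.69, Igsf1 at 0.68, 6330403K07Rikl at 0.67, Arxes1 and Hap1 at 0.66 and Fbxo3 at 0.65. Hap1, Igsf1 and 6330403K07Rikl were in all of these lists, 3 of 10 in each, and Pmch and Avp shared 6 of 10. Without the 4 arrays, r of the Pmch genes dropped to between 0.14 and 0.56, and 1 of the 10 was still among the 10 highest. For Pmch, the values were 0.79 to 0.90 in experiment A and -0.46 to 0.41 in experiment B, which held no high array.

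**Figure D5:**
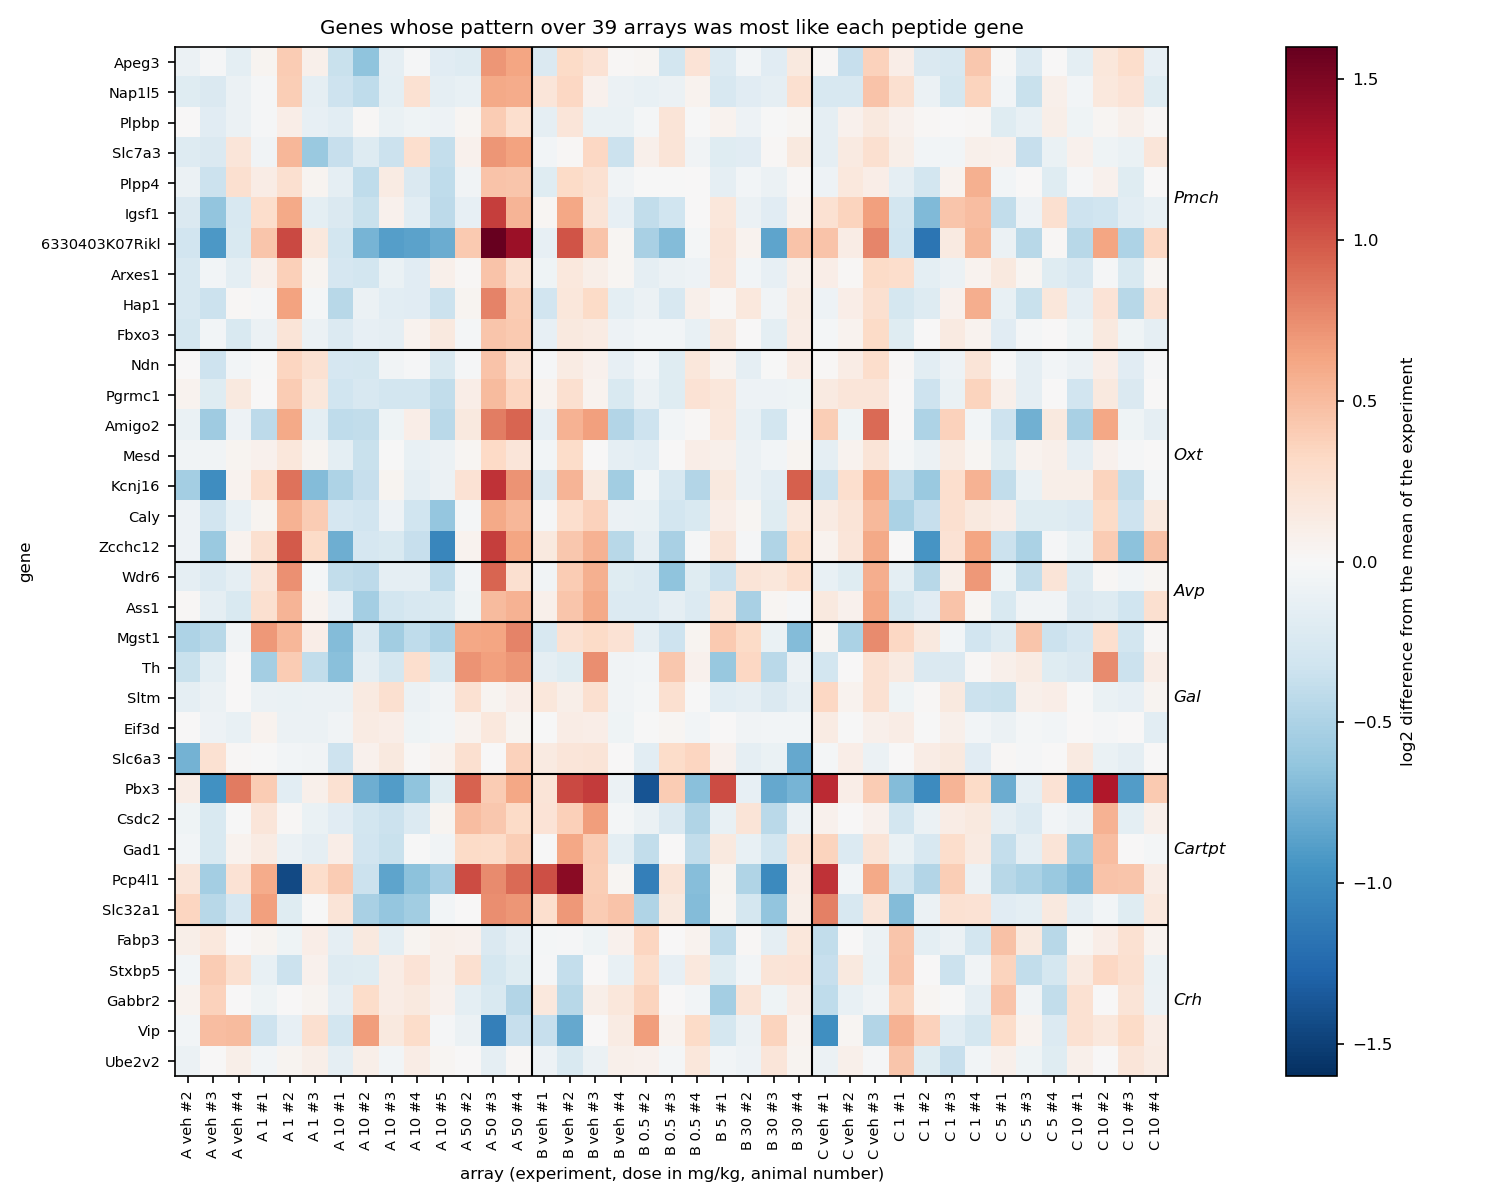
Log2 difference from the mean of the experiment (colour) for the genes most like each peptide gene (rows, grouped under the first peptide gene whose list holds them) in the 39 arrays (columns, labelled by experiment, dose in mg/kg and animal). The 4 Oxt-high arrays (A 1 #2, A 50 #3, A 50 #4 and C veh #3) are red across the upper 3 blocks, while the Cartpt and Crh blocks vary in all 3 experiments.

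The genes most like Cartpt included 2 that define GABA neurons. Pbx3, a homeobox transcription factor, and Csdc2 were at 0.75, Gad1 (glutamate decarboxylase, which makes GABA) and Pcp4l1 at 0.73 and Slc32a1 (the vesicular GABA transporter) at 0.72. In contrast to the lists above, these values held within each experiment: Gad1 at 0.61, 0.89 and 0.70 and Slc32a1 at 0.63, 0.88 and 0.69 in A, B and C. They were 0.74 to 0.84 in the 35 arrays without high Oxt. The mean of the cortical list had an r of -0.58 with Cartpt, that of the striatal list 0.51, that of the hypothalamic list 0.61 and that of the olfactory list 0.63.

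Gal had its highest values with Mgst1 and Th (tyrosine hydroxylase, which makes the dopamine precursor) at 0.58, and with Sltm, Eif3d and Slc6a3 (the dopamine transporter) at 0.55. Th was 6.64 to 8.28 over all arrays. Crh had Fabp3 at 0.68, Stxbp5 (tomosyn) at 0.64, Gabbr2 (a GABA-B receptor subunit) at 0.61, and Vip, a peptide of cortical interneurons, and Ube2v2 at 0.60. The r of Crh was 0.35 with the cortical list, -0.19 with the hypothalamic list and -0.48 with the striatal list. The lists of Gal, Cartpt and Crh shared 0 genes with those of Oxt, Avp and Pmch. All these values are descriptions over the same 39 arrays.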

How the data were processed

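Intensities on a linear scale, 1 per probe set and array, were used as deposited by the authors, without detection calls. How probes were summarized was not given in the sources used here, and RNA extraction (Qiagen) and labelling (Enzo) are per the labels' protocols. Columns with a median correlation under 0.5 to the others were left out, since no table pairs their rows. From the deposited intensity, log2 values were computed: scaling to equal medians, a floor at the 5th percentile (10.9), log2, quantile normalisation. The 57 control probe sets and those under the 30th percentile of the mean (6.90) were left out. limma 3.58.1 (R 4.3.3) fitted experiment plus dose (trend=TRUE, two-sided, Benjamini-Hochberg over 11106, threshold 0.05), and a group-means fit gave values within experiments, the A minus C differences and the vehicle F test. The fit was tested on simulated data. Figures were drawn with matplotlib 3.10.9 (python 3.11.15).

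Of the probe sets 12783 carry 1 symbol in the platform table, 312 several and 2771 none. Named were the 6 members, the first 4 measured genes of each gene list, all receptors, and the 10 (Pmch, Oxt, Avp) or 5 genes of highest correlation, with the 5 lowest for Oxt. A list's gene is its brightest probe set. Some genes stand in more than 1 list, so the counts of the lists are not independent. Penk, Tac1 and Pdyn are in the precursor and striatal lists. Th is in the hypothalamic and olfactory lists, and Ntng1 in the thalamic and olfactory lists. Prlr is in the hypothalamic and choroid plexus lists. The members and lists were chosen with earlier results of these data known. Alternatives covered scaling, floor, filter, prior, the animal number as a block, and arrays left out.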

Additional observations from a re-analysis of the deposited data

Results flagged for a closer look

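A value far from the others of its group was looked for in 24 groups of 4 or 5 arrays, 1 for each gene and group, and 3 were found, where chance gives about 1 in 20. Pmch was 8.14 in 10 mg/kg animal 3 of experiment A, with the next of the 5 arrays at 7.61 and the lowest at 7.43. Avp was 6.97 in vehicle animal 4 of experiment B, where the other 3 arrays lay between 7.47 and 7.54. Cartpt was 8.42 in 10 mg/kg animal 1 of experiment C, where the other 3 lay between 9.45 and 9.61. The Oxt-high arrays stand in groups of 3, which are too small for this rule.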

How the results depend on the processing

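At 50 mg/kg, where 1 member, Pmch, was called, 0 were called with all 46 columns, with the filter at the 50th percentile, with no filter, without experiment B, without the 4 Oxt-high arrays (chosen after the data were seen) and with the animal number within each experiment as a replicate block, and 2 were called (Pmch and Avp) without experiment C, where 66 of 11106 probe sets (0.594%) passed. Leaving out 1 array at a time gave 0 to 1. At 5 mg/kg, 3 were called with no scaling, where 5115 of all probe sets (46.1%) passed around a median shift of -0.385, and 0 otherwise. No called value changed its direction. The replicate block gave Pmch 2.17 ± 0.42. Same-numbered arrays did not deviate together: their correlations had a median of 0.00352 over 43 pairs against 0.00293 over 135 other pairs. Correlations of this kind cannot settle whether the numbers pair the samples, and the main fit took them as unpaired. By Spearman's correlation 2, 6, 2, 1, 1 and 3 of the most similar genes of Pmch, Oxt, Avp, Gal, Cartpt and Crh stayed in their lists, and without the 4 arrays 1, 3, 1, 0, 4 and 2. With no detection calls, levels near the floor cannot be told from background.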
